A study of Mus musculus with 12 samples.

Results

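The genes described here are the 9 core genes of Sonic hedgehog signalling in the mouse spinal cord: the ligand Shh, the receptor Ptch1, the transducer Smo, the co-receptors Boc and Cdon, the inhibitor Hhip and the transcription factors Gli1, Gli2 and Gli3. They were taken by exact gene symbol from a table of 30740 symbols, all 9 were found, and each was measured in all 12 RNA-seq libraries. The libraries came from ventral spinal cord of CB6F1/J mouse embryos at E12.5 (embryonic days) carrying the Hb9:GFP transgene, in which the promoter of Mnx1 (also called Hb9) drives green fluorescent protein in spinal motor neurons. Cells dissociated from pooled tissue were sorted on GFP by flow cytometry, and the question was what loss of Arhgap35, which encodes the GTPase regulator p190, changes in motor neurons. There were 5 libraries of Arhgap35 knockout GFP-positive cells, 5 of control GFP-positive cells, 1 of knockout GFP-negative cells and 1 of control GFP-negative cells. The sample titles call the controls wild type, whereas the protocol allows littermates that were wild-type or p190+/-, so a control library may hold cells with 1 knockout allele. All 4 groups share strain, age, tissue and reporter. Whether the replicates are separate litters is not stated in the labels, and the p-values therefore describe how far these libraries spread, which may be partly technical.

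Sonic hedgehog is secreted by the notochord and the floor plate and patterns the ventral neural tube as a morphogen. Without ligand, Ptch1 holds Smo inactive. When Shh binds Ptch1, helped by Boc and Cdon, Smo acts at the primary cilium and turns Gli2 and Gli3 away from their repressor forms, and Ptch1, Hhip and Gli1 are themselves transcribed in response, so their mRNA is widely used as a readout of the pathway. In the spinal cord this response is best known from the dividing progenitors of the ventricular zone, which give rise to motor neurons and ventral interneurons.

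The sort was checked first. All 10 motor neuron markers tested were higher in GFP-positive than in GFP-negative cells, with a summed level of 2286 to 2850 TPM (transcripts-per-million, the deposited length-corrected unit) in knockout and 2208 to 2831 TPM in control GFP-positive libraries, against 92.3 TPM in the knockout and 100.3 TPM in the control GFP-negative library. The labels name motor neurons as the cell type of the GFP-negative samples too, but there these markers were low and the 12 progenitor markers summed to 3672 TPM in the knockout and 3396 TPM in the control library. In GFP-positive libraries the progenitor markers summed to 727.9 to 873.9 TPM in knockout and 717.9 to 926.5 TPM in control cells. The sum weighs abundant markers most: the median marker stood at only 3.48 to 10.6% of its mean GFP-negative TPM across these libraries. All 12 were lower in GFP-positive cells, with log2 fold changes from -5.03 to -1.33 (edgeR). Arhgap35 averaged 96.9 ± 7.84 CPM (counts-per-million units) in knockout and 173 ± 25.6 CPM in control GFP-positive cells (SD, n = 5 each), and the 2 groups did not overlap. Libraries held 23.7 to 33.8 M estimated counts, so a floor of 3 counts lay between 0.0891 and 0.127 CPM.

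The 9 genes lie on 8 chromosomes of GRCm38 by GENCODE M21, all annotated as protein-coding. Shh is at chr5:28456815-28467256 on the minus strand, Ptch1 at chr13:63508328-63573598 (minus), Smo at chr6:29735503-29761365 (plus), Boc at chr16:44485049-44558897 (minus) and Cdon at chr9:35421128-35507652 (plus). Hhip is at chr8:79965851-80058006 (minus), Gli1 at chr10:127329882-127341974 (minus), Gli2 at chr1:118834132-119053619 (minus) and Gli3 at chr13:15463235-15730026 (plus). The library kit does not keep strand, and 4 genes share exonic bases with a gene on the opposite strand, whose reads there cannot be told apart: Shh shares 361 bases with Gm26894 and 446 with 9530036O11Rik of its 2847 exonic bases. For Gli1 the shared bases were 62 with Arhgap9 and 265 with Gm47200 of 4995, for Gli3 188 with Gm6556 of 9589, and for Hhip 175 with Gm27820 of 9076.

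RefSeq promoter windows of 300 bases, 250 before and 50 after a gene's start, were at hand for 6 of the 9 genes. The windows of Gli2, Gli3 and Ptch1 are shown because Gli2 and Gli3 differed together between libraries while Ptch1 is the receptor gene known as a direct Gli target. They are 5′ to 3′ on the gene's strand, with the GC box GGGCGG, or its reverse complement CCGCCC, in capitals.
Gli2, chr1:119053570-119053869, minus strand, GRCm38.p6: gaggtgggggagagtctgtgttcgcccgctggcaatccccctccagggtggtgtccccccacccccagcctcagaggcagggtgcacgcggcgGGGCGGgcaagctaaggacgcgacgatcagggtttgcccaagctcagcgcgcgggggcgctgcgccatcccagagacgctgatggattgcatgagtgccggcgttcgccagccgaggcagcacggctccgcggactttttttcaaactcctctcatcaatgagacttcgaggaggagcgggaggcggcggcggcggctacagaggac
Gli3, chr13:15463473-15463772, plus strand, GRCm38.p6: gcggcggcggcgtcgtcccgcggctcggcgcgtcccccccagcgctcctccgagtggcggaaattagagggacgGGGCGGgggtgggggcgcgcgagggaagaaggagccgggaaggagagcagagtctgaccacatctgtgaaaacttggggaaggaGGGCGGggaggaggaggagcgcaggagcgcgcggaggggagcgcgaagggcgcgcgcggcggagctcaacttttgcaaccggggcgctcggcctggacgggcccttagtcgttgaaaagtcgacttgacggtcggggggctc
Ptch1, chr13:63565686-63565985, minus strand, GRCm38.p6: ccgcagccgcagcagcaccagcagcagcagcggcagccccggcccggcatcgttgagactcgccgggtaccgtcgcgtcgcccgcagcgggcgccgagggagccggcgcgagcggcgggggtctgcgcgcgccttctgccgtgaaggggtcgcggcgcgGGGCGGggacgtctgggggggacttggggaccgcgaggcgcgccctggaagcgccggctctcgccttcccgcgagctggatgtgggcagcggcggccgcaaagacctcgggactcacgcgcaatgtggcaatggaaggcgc
The RefSeq starts used for Ptch1, Cdon and Gli3 lie inside the longer GENCODE genes. The GLI core GACCACC and its reverse complement GGTGGTC, searched on both strands, were found in 0 of the 6 windows, against 2.80% of 32851 promoter windows of all genes. The core is contained in the longer GLI consensus GACCACCCA, which 0.253% of all windows held and none of the 6. A GC box was found in 4 of the 6 (1 in Ptch1, 1 in Gli2, 2 in Gli3 and 2 in Hhip), against 35.7% of all windows. These letters within 300 bases are a description and say nothing of binding.

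Ranked by mean TPM, the 9 genes had a different order in the 2 kinds of cell. In the 10 GFP-positive libraries Ptch1 led with 42.2 TPM, followed by Cdon with 11.0, Smo with 7.83, Shh with 5.98, Boc with 2.07, Hhip with 1.15, Gli3 with 0.735, Gli2 with 0.615 and Gli1 with 0.288 TPM. Only 2 neighbours in that order had ranges that did not overlap, Ptch1 above Cdon and Shh above Boc. In the 2 GFP-negative libraries Ptch1 again led with 78.3 TPM, and Boc was next with 52.9 TPM, then Smo with 42.6, Gli3 with 15.3, Cdon with 14.8, Gli2 with 14.0, Gli1 with 5.22, Hhip with 1.89 and Shh with 1.88 TPM. There the neighbours Gli3 and Cdon, Cdon and Gli2, and Hhip and Shh overlapped. Shh was thus the fourth of the 9 genes in GFP-positive cells and, level with Hhip, the last in GFP-negative cells.

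**Figure D1:**
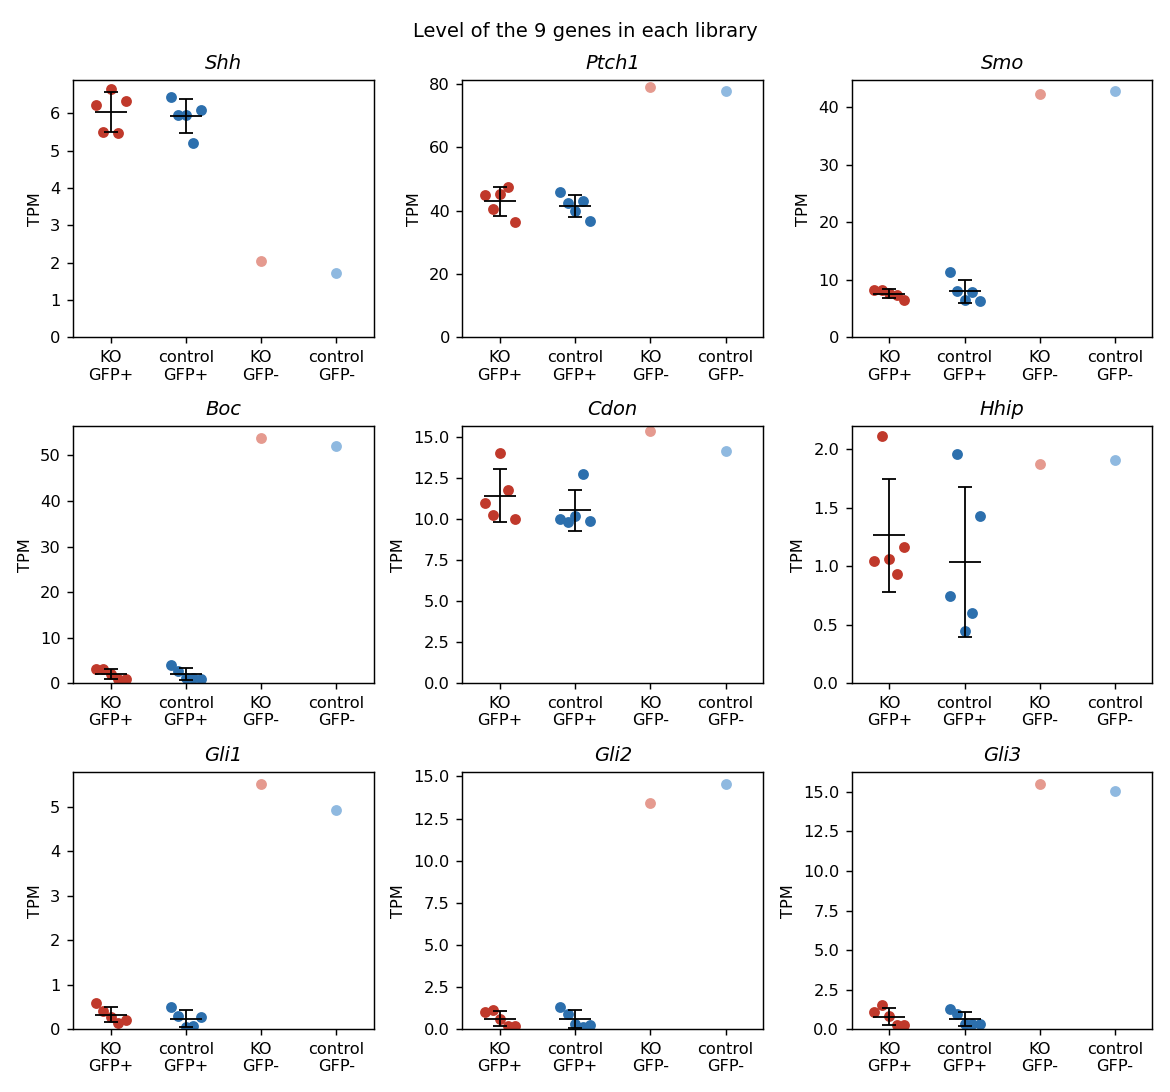
Level of each of the 9 genes in every library, in TPM on a linear axis that starts at 0, with knockout (KO) left of control for GFP-positive (GFP+) and GFP-negative (GFP-) cells. Points are libraries, and bars give the mean and SD of the 5 GFP-positive libraries of a genotype. Knockout and control points overlap in GFP-positive cells for all 9 genes, Shh is the gene that stands higher in GFP-positive cells, and Hhip is the gene whose GFP-positive points reach past the GFP-negative ones.

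Between GFP-positive and GFP-negative cells, 1 of the 9 genes was higher in GFP-positive cells (Shh), 7 were lower (Ptch1, Smo, Boc, Cdon, Gli1, Gli2 and Gli3) and Hhip was not called, in edgeR's quasi-likelihood test over 19763 genes with genotype as a covariate and a threshold of 0.05 on the Benjamini-Hochberg adjusted p. The sort separated a large part of the transcriptome in this test: 30.1% of all genes tested were called higher and 31.8% lower, so a call by itself says little about these genes. Likewise the CPM of all GFP-positive libraries lay above both GFP-negative libraries for 29.1% of genes and below both for 31.7%, which held for 1 and 7 of the 9. Their median log2 fold change was -2.47, against 0.018 over all genes tested. Only 0.309% of tested genes had a lower log2 fold change than Boc, 0.344% than Gli2, 0.400% than Gli3 and 0.572% than Gli1, whereas 11.6% lay below Ptch1 and 22.5% below Cdon. In sorted bulk RNA, fewer cells that express a gene and less of its RNA per cell cannot be told apart.

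Shh, the ligand, was the only one of the 9 genes above its GFP-negative level in every GFP-positive library. Its level was 6.23, 5.49, 6.65, 5.48 and 6.33 TPM in knockout GFP-positive replicates 1 to 5 and 6.44, 5.96, 5.97, 5.21 and 6.08 TPM in control GFP-positive replicates 1 to 5, against 2.04 TPM in the knockout and 1.72 TPM in the control GFP-negative library. The lowest GFP-positive library was above both GFP-negative libraries, and the 2 genotypes overlapped. Shh was 3.12-fold higher in GFP-positive cells (log2 fold change 1.64, standard error 0.130, 95% interval 1.36 to 1.92, edgeR adjusted p = 1.14e-07). Of 8 floor plate markers, 7 could be tested: 4 were called lower in GFP-positive cells, 0 higher and 3 in neither direction (edgeR). Their log2 fold changes ranged from -4.93 to 0.56, so not all of them were below 0. Which cells the Shh RNA came from was not tested. Foxa2, the transcription factor that defines the floor plate, averaged 0.232 TPM in GFP-positive cells and stood at 0.789 TPM in the knockout and 0.479 TPM in the control GFP-negative library. The summed floor plate level was 37.7 to 56.5 TPM in knockout and 40.7 to 66.1 TPM in control GFP-positive libraries, against 213 TPM in the knockout and 209.7 TPM in the control GFP-negative library. Of that sum Spon1 made up 31.9 TPM on average in GFP-positive cells.

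Ptch1, the receptor that binds Shh, was at 42.4 to 56.3% of its mean GFP-negative CPM across GFP-positive libraries. It had 44.9, 40.5, 45.3, 47.4 and 36.3 TPM in knockout GFP-positive replicates 1 to 5 and 45.9, 42.4, 39.8, 43.1 and 36.7 TPM in control GFP-positive replicates 1 to 5, against 79.0 TPM in the knockout and 77.7 TPM in the control GFP-negative library. All 10 GFP-positive libraries lay below both GFP-negative libraries, and replicate 5 was the lowest in both genotypes. The fold was 0.508 (log2 fold change -0.98, standard error 0.0799, 95% interval -1.15 to -0.80, edgeR adjusted p = 2.01e-07).

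Smo, the membrane protein that carries the signal inward, was at 14.5 to 25.9% of its mean GFP-negative CPM across GFP-positive libraries. Its levels were 8.31, 8.26, 7.68, 7.31 and 6.49 TPM in knockout GFP-positive replicates 1 to 5 and 11.3, 8.12, 6.57, 7.92 and 6.26 TPM in control GFP-positive replicates 1 to 5, against 42.3 TPM in the knockout and 42.9 TPM in the control GFP-negative library. Control replicate 1 stood above the other 9 GFP-positive libraries, and none came near the GFP-negative level. The GFP-positive level was 5.56-fold lower (log2 fold change -2.47, standard error 0.140, 95% interval -2.78 to -2.17, edgeR adjusted p = 1.45e-08).

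The co-receptors Boc and Cdon, related cell surface proteins that bind Shh and aid its reception, parted from each other. Boc had 3.25, 3.20, 1.98, 0.957 and 0.892 TPM in knockout GFP-positive replicates 1 to 5 and 4.14, 2.81, 1.27, 1.19 and 0.959 TPM in control GFP-positive replicates 1 to 5, against 53.8 TPM in the knockout and 52.1 TPM in the control GFP-negative library. Replicates 1 and 2 were high and replicates 4 and 5 low in both genotypes, and every GFP-positive library was far below both GFP-negative ones. Boc was 25.9-fold lower in GFP-positive cells (log2 fold change -4.70, standard error 0.445, 95% interval -5.69 to -3.70, edgeR adjusted p = 5.92e-06), or -3.88 on the log2 scale with the replicate number as a block. Both GFP-negative libraries are numbered 1, so between these kinds of cell the block fit rests on the libraries of replicate 1. Cdon had 11.0, 10.3, 14.0, 11.8 and 10.1 TPM in knockout GFP-positive replicates 1 to 5 and 10.03, 9.85, 10.2, 12.8 and 9.93 TPM in control GFP-positive replicates 1 to 5, against 15.4 TPM in the knockout and 14.2 TPM in the control GFP-negative library. The GFP-positive libraries lay below both GFP-negative ones by a small margin, with knockout replicate 3 the nearest. The log2 fold change of Cdon was -0.50 (standard error 0.0954, 95% interval -0.71 to -0.29, edgeR adjusted p = 0.000418). In GFP-positive cells the mean level of Cdon was thus above that of Boc, whereas Boc was above Cdon in both GFP-negative libraries.

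Hhip, a membrane protein that binds hedgehog ligands and limits their range, was the gene whose 2 kinds of cell overlapped. It had 1.05, 2.11, 1.06, 0.937 and 1.17 TPM in knockout GFP-positive replicates 1 to 5 and 0.746, 1.96, 0.451, 0.603 and 1.43 TPM in control GFP-positive replicates 1 to 5, against 1.87 TPM in the knockout and 1.91 TPM in the control GFP-negative library. Replicate 2 was the highest in both genotypes and reached the GFP-negative level. The log2 fold change was -0.83 (standard error 0.358, 95% interval -1.61 to -0.045) and missed the threshold (edgeR adjusted p = 0.0628). It passed with the replicate number as a block (-1.07, adjusted p = 0.00248) and without control GFP-positive replicate 2 (-0.997, edgeR adjusted p = 0.00517). The block fit takes this difference from replicate 1, the number of both GFP-negative libraries, so the high replicate 2 does not count toward it. Over all alternatives the adjusted p of Hhip ranged from 0.00248 to 0.180, and from 0.00517 to 0.284 with 1 library left out.

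The 3 Gli transcription factors, Gli2 as the main activator, Gli3 as the main repressor and Gli1 as a target that adds activator, were the 3 lowest of the 9 genes by mean TPM in GFP-positive cells, and Gli1 lay near the floor of counts there. Gli1 had 24, 14, 9, 8 and 10 estimated counts in knockout GFP-positive replicates 1 to 5 and 11, 11, 2, 3 and 9 in control GFP-positive replicates 1 to 5, against 216 in the knockout and 220 in the control GFP-negative library. Control replicates 3 and 4 were at or under the floor of 3 counts. In TPM, Gli1 ranged from 0.0513 to 0.597 in GFP-positive libraries, against 5.51 in the knockout and 4.93 in the control GFP-negative library. Its log2 fold change was -4.35 (standard error 0.361, 95% interval -5.13 to -3.56, edgeR adjusted p = 2.74e-07), or -3.63 with the replicate number as a block. On the log2(TPM + 1) scale, where the pseudocount shrinks low genes, it was -2.28 by limma.

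Gli2 had 1.04, 1.13, 0.627, 0.194 and 0.176 TPM in knockout GFP-positive replicates 1 to 5 and 1.36, 0.940, 0.330, 0.114 and 0.245 TPM in control GFP-positive replicates 1 to 5, against 13.4 TPM in the knockout and 14.6 TPM in the control GFP-negative library. As for Boc, replicates 1 and 2 were high and replicates 4 and 5 low. The log2 fold change was -4.61 (standard error 0.594, 95% interval -5.94 to -3.29, edgeR adjusted p = 5.90e-05), or -3.56 with the replicate number as a block and -3.27 by limma on log2(TPM + 1). Gli3 had 1.08, 1.52, 0.861, 0.276 and 0.261 TPM in knockout GFP-positive replicates 1 to 5 and 1.30, 1.00, 0.368, 0.330 and 0.352 TPM in control GFP-positive replicates 1 to 5, against 15.5 TPM in the knockout and 15.1 TPM in the control GFP-negative library. The same replicates were high and low, and no GFP-positive library approached the GFP-negative level. The log2 fold change of Gli3 was -4.57 (standard error 0.485, 95% interval -5.66 to -3.49, edgeR adjusted p = 1.29e-05), or -3.75 with the replicate number as a block and -3.28 by limma on log2(TPM + 1).

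Set against Ptch1 in the same library, the level of Gli1 was 0.129 to 1.33% of the Ptch1 TPM in GFP-positive libraries and 6.35 to 6.97% in GFP-negative libraries. Both genes are transcribed in response to the pathway, and their ratio did not overlap between the 2 kinds of cell. Hhip, also transcribed in response, did overlap, at 1.13 to 5.22% of the Ptch1 level in GFP-positive and 2.37 to 2.46% in GFP-negative libraries. Smo stood at 15.4 to 24.7% of the Ptch1 level in GFP-positive and 53.5 to 55.2% in GFP-negative libraries. Gli3 was at 0.583 to 3.75% of the Ptch1 level in GFP-positive and 19.4 to 19.6% in GFP-negative libraries.

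**Figure D2:**
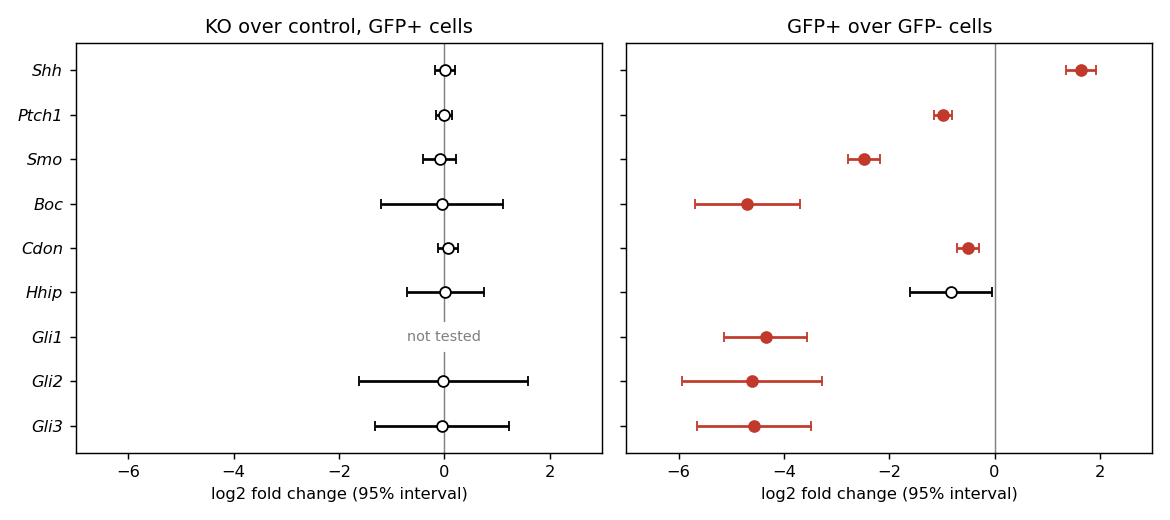
Log2 fold changes of the 9 genes with 95% intervals from edgeR, for knockout over control in the 10 GFP-positive libraries (left) and GFP-positive over GFP-negative cells in all 12 libraries (right). Filled red points passed an adjusted p of 0.05 and open points did not, and Gli1 was not tested on the left. All intervals on the left span 0, narrow for Shh, Ptch1 and Cdon and wide for Boc, Gli2 and Gli3, and on the right Shh is the gene to the right of 0.

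The effect of losing Arhgap35 was tested on the 10 GFP-positive libraries. None of the 8 pathway genes that passed the filter on low counts was called (edgeR, all with an adjusted p of 0.9999), 0 had an unadjusted p under 0.05, and DESeq2 and limma on log2 TPM also called 0 of them. Over all genes the same test called 6 of 17487 (0.0343%), and read against that share, 0 of 8 is no result particular to these genes. The groups' CPM did not overlap for 94 genes (0.538%), none of them among the 9. Gli1 did not pass the filter in this comparison. Tested with no filter, it had a log2 fold change of 0.76 (95% interval -0.22 to 1.73, edgeR adjusted p = 0.9992) and was higher in knockout in 4 of 5 pairs of libraries with the same replicate number.

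The width of the intervals differed between the genes. Shh averaged 6.03 ± 0.526 TPM in knockout and 5.93 ± 0.447 TPM in control GFP-positive cells (SD, n = 5 each), and its log2 fold change was 0.016 (95% interval -0.18 to 0.21). For Ptch1 the means were 42.9 ± 4.44 TPM in knockout and 41.6 ± 3.46 TPM in control cells (SD, n = 5 each), and the log2 fold change was -0.0032 (95% interval -0.16 to 0.16). The direction of the edgeR fold change differed from that of the mean TPM for Ptch1, Gli2 and Gli3, by less than the spread. For Gli2 the mean CPM went with the mean TPM, at 1.68 CPM in knockout and 1.65 CPM in control cells. Gli2 averaged 0.632 ± 0.450 TPM in knockout and 0.597 ± 0.529 TPM in control cells (SD, n = 5 each). Gli3 averaged 0.799 ± 0.539 TPM in knockout and 0.670 ± 0.451 TPM in control cells (SD, n = 5 each). Cdon averaged 11.4 ± 1.61 TPM in knockout and 10.6 ± 1.25 TPM in control cells (SD, n = 5 each), with a log2 fold change of 0.074 (-0.11 to 0.26). Smo averaged 7.61 ± 0.750 TPM in knockout and 8.04 ± 2.02 TPM in control cells (SD, n = 5 each), with a log2 fold change of -0.090 (-0.40 to 0.22).

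For the other genes the intervals were wider in the fit that leaves the pairing by replicate number out. Over the alternative settings the log2 fold change of Hhip ranged from 0.017 to 0.38. In the main fit it was 0.019 with a 95% interval of -0.71 to 0.75, that of Boc -0.048 (-1.21 to 1.11), that of Gli3 -0.044 (-1.32 to 1.23) and that of Gli2 -0.018 (-1.63 to 1.59). With the replicate number as a block, the fit that takes the pairing into account, these intervals narrowed to -0.37 to 0.31 for Boc, -0.41 to 0.38 for Gli3, -0.40 to 0.62 for Gli2 and -0.27 to 0.48 for Hhip, and again 0 of the 8 genes were called. The block fit did not call Arhgap35 itself either (log2 fold change -0.82, edgeR adjusted p = 0.162). The fit without the block called it (-0.83, edgeR adjusted p = 0.0240). A gene left uncalled by the block fit may thus still differ. In CPM, knockout was above control in 3 of 5 same-numbered pairs for Shh, Smo and Gli2, in 2 of 5 for Ptch1, Gli3, Boc and Hhip, and in 4 of 5 for Cdon. For Hhip the unit mattered. In TPM its knockout library was the higher one in replicate 2 (2.11 against 1.96) and replicate 4 (0.937 against 0.603), where CPM had it lower. No gene was higher, or lower, in knockout in all 5 pairs.

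In GFP-negative cells each genotype had 1 library, so the genotype difference has no replicate check there. Shh had 2.45 CPM in the knockout and 2.07 CPM in the control library, and Gli1 7.89 CPM in the knockout and 7.46 CPM in the control library. The difference between the knockout effect in GFP-negative and in GFP-positive cells was tested as an interaction, on the assumption that a lone library varies as much as the groups with replicates. It was called for 0 of the 9 genes and for 5 of 19763 genes overall (0.0253%). None of the 9 had an unadjusted p under 0.05 in edgeR, and DESeq2 and limma called 0 of them as well. The intervals reached from -0.33 to 0.45 on the log2 scale for Ptch1 and from -3.34 to 3.36 for Gli2.

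Within GFP-positive cells some of the genes varied more between replicate numbers than between genotypes. As a percentage of the mean GFP-negative CPM, Boc stood at 5.93 and 7.62% in the knockout and control library of replicate 1, at 6.09 and 5.31% in those of replicate 2, and at 3.77 and 2.48% in those of replicate 3. In the knockout and control libraries of replicate 4 it was at 1.66 and 2.26%, and in those of replicate 5 at 1.65 and 1.83%. Gli2 ranged from 0.819 to 9.65% and Gli3 from 1.57 to 8.33% over the 10 libraries, in the same grouping, with replicates 1 and 2 above replicate 3 and replicate 3 above replicates 4 and 5 in both genotypes. Shh, at 270.5 to 347%, and Ptch1 had narrower ranges relative to their level.

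**Figure D3:**
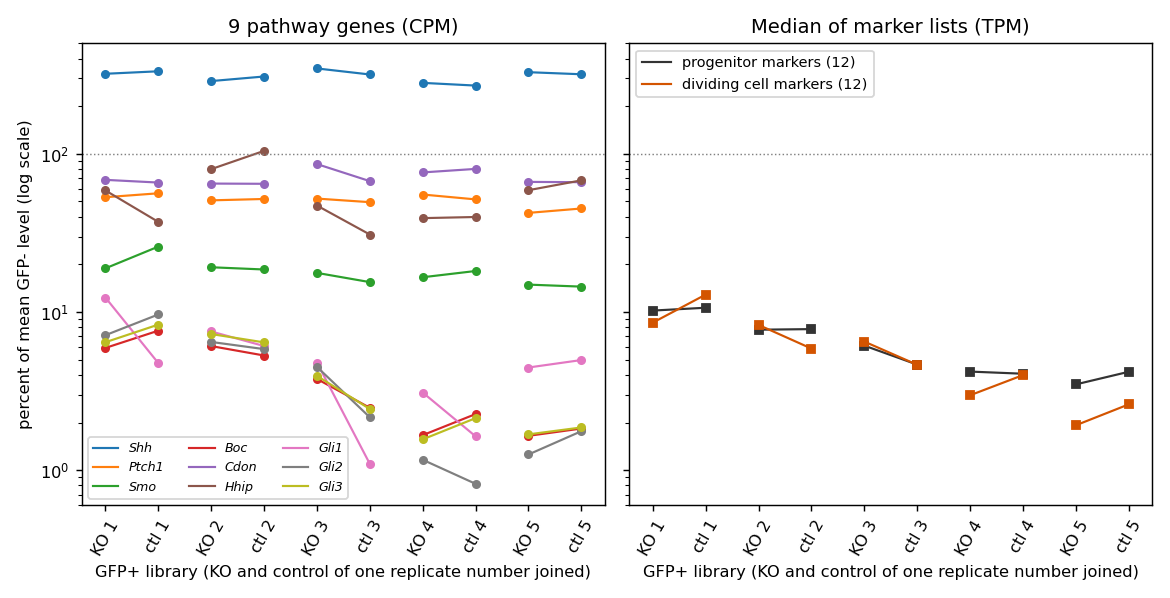
Level of each GFP-positive library as a percentage of the mean of the 2 GFP-negative libraries, on a log axis, for the 9 genes in CPM (left) and for the median of 2 marker lists in TPM (right). The knockout (KO) and control (ctl) libraries of 1 replicate number are joined. Boc, Gli2 and Gli3 are highest in replicates 1 and 2 and lowest in replicates 4 and 5, with the progenitor and dividing cell markers in a similar pattern, whereas Shh, Ptch1 and Cdon stay nearly level.

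A test of the 5 replicate numbers with genotype as a covariate, added after these values were seen, called 5 of 8 genes tested (edgeR, 9.71% of 17487 genes called). The fitted difference between the highest and the lowest replicate number was 3.06 on the log2 scale for Gli2 (adjusted p = 0.00338), 2.05 for Gli3 (0.00308), 1.96 for Boc (0.00282), 1.25 for Hhip (0.0357) and 0.32 for Ptch1 (0.0305). Smo (0.60, adjusted p = 0.0947), Cdon (0.27, 0.162) and Shh (0.27, 0.402) were not called. This difference cannot be negative, and its median over all genes tested was 0.277, near the values of Ptch1, Cdon and Shh. The calls of Hhip and Ptch1 were lost with DESeq2 (adjusted p of 0.121 and 0.122; over all alternatives 0.0109 to 0.246 for Hhip and 0.0101 to 0.294 for Ptch1), and leaving out control replicate 2, 3, 4 or 5 or knockout replicate 4 or 5 ended the call of Hhip. That of Ptch1 ended without control replicate 1 or 5 or knockout replicate 4 or 5. Without knockout replicate 1 Smo was called (edgeR adjusted p = 0.0199), and without control replicate 3 Cdon was (0.0178). With limma on log2 TPM 0 or 1 of the 9 genes were called, depending on pseudocount and filter.

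Markers of progenitors and of dividing cells moved with Boc, Gli2 and Gli3 across replicate numbers, and those of the floor plate did so in part. The median progenitor marker stood at 10.2 to 10.6% of its GFP-negative level in the 2 libraries of replicate 1, 7.73 to 7.80% in replicate 2, 4.65 to 6.13% in replicate 3, 4.07 to 4.20% in replicate 4 and 3.48 to 4.19% in replicate 5. For dividing cell markers these values were 8.57 to 12.9%, 5.87 to 8.29%, 4.64 to 6.50%, 2.97 to 3.99% and 1.92 to 2.60%. Of these lists, 8 of 12 progenitor and 9 of 12 dividing cell markers differed between replicate numbers in the same test, and no marker of either list was at 0 in any library. Ventral interneuron markers, of which 11 of 12 differed, were highest in replicate 1 (24.2 to 32.1%) and next highest in replicate 4 (12.8 to 22.2%). Floor plate markers, of which 4 of 5 tested differed, had a median at 56.8 to 83.4% in replicate 1, 48.6 to 69.1% in replicate 2, 19.0 to 40.0% in replicate 3, 31.8 to 33.0% in replicate 4 and 26.8 to 28.5% in replicate 5. Their lowest library was knockout replicate 3, unlike for Boc, Gli2 and Gli3. The part of these cells in the levels of Boc, Gli2 and Gli3 was not tested.

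Over the 10 GFP-positive libraries, which share their sort and their pairing by number, Pearson's r of log2 CPM was 0.997 between Boc and Gli3, 0.957 between Gli2 and Gli3 and 0.951 between Boc and Gli2. For the markers the level used here was log2 of the summed TPM of a list, not the median percentage given above. Against the progenitor marker level r was 0.951 for Boc, 0.945 for Gli3, 0.932 for Gli2 and 0.851 for Smo. It was 0.607 for Gli1, 0.602 for Ptch1, 0.329 for Shh, 0.219 for Hhip and -0.10 for Cdon. Against the floor plate marker level r was 0.928 for Boc, 0.926 for Gli3, 0.887 for Gli2 and 0.871 for Smo, and against the dividing cell marker level 0.916, 0.896, 0.903 and 0.872 for the same genes. These are descriptions over 10 libraries. The genes outside the 9 most like Boc by this measure, among 13584 candidates whose log2 CPM averaged 1 or more, were Sox2 (r = 0.985), Wnt7b (0.982) and Mki67 (0.981). The most like Ptch1 were Ctcf (0.978), Top1 (0.970) and Zfp113 (0.967), and the most like Shh were Prdx4 (0.909), A530058N18Rik (0.905) and Ccny (0.889). All were picked as the highest of these candidates, which by itself favours a high r. This limit weighs most on Shh, which was not called between replicate numbers (edgeR adjusted p = 0.402). Sox2 and Mki67 are in the progenitor and dividing cell lists.

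Other genes of the pathway were grouped by role. None of the 88 tested genes of the 6 lists was called between knockout and control GFP-positive cells (edgeR), and 0 had an unadjusted p under 0.05. Over all genes tested 6 of 17487 (0.0343%) were called and 375 had an unadjusted p under 0.05. All further values compare GFP-positive with GFP-negative cells, where 61.9% of all genes tested were called in 1 direction or the other.

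Of 10 other ligands and proteins of ligand release, 8 were tested, 1 was higher in GFP-positive cells and 5 were lower (median log2 fold change -0.50). Scube3, a secreted protein that aids ligand release, was the highest of the list at 43.5 ± 4.08 TPM in GFP-positive cells (SD, n = 10), against 32.8 and 34.2 TPM in the knockout and control GFP-negative libraries (log2 fold change 0.32, edgeR adjusted p = 0.00180). Its relative Scube1 averaged 13.1 ± 2.23 TPM in GFP-positive cells and 22.0 and 23.9 TPM in GFP-negative libraries (log2 fold change -0.78, edgeR adjusted p = 0.00108). The glypican Gpc3 averaged 10.1 ± 2.44 TPM in GFP-positive cells and 16.4 and 15.7 TPM in GFP-negative libraries (log2 fold change -0.70, edgeR adjusted p = 0.0111). The other hedgehog ligands were nearly silent in both kinds of cell: Ihh stood at 0.111 to 0.343 TPM in GFP-positive libraries, and Dhh at 0 to 0.119 TPM, with 0 in both GFP-negative libraries.

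Among further receptors and co-receptors, Gas1, Gpr161 and Lrp2 were lower in GFP-positive cells. Gas1, a co-receptor that acts beside Boc and Cdon, averaged 6.50 ± 1.32 TPM in GFP-positive cells (SD, n = 10) and 39.0 and 38.6 TPM in the knockout and control GFP-negative libraries (log2 fold change -2.58, edgeR adjusted p = 1.02e-08). Gpr161, a ciliary receptor that restrains the pathway, averaged 26.1 ± 3.21 TPM in GFP-positive cells and 41.6 and 42.6 TPM in GFP-negative libraries (log2 fold change -0.75, edgeR adjusted p = 0.000116). Lrp2 had a log2 fold change of -3.39 (edgeR adjusted p = 4.51e-07).

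Cytoplasmic and nuclear regulators and the genes of the primary cilium stayed near their GFP-negative level in their median. Of 29 regulators tested, 10 were higher and 14 lower in GFP-positive cells, with a median log2 fold change of -0.15. Single regulators moved far more, over a range of -5.49 to 0.68. The 3 most abundant were the casein kinases Csnk1e (log2 fold change -0.23) and Csnk1a1 (-0.17), both lower, and Prkaca, the catalytic subunit of protein kinase A, which was higher (0.51), each with an edgeR adjusted p under the threshold. Of 31 cilium and intraflagellar transport genes, 6 were higher and 12 lower, with a median of -0.10 and a range of -1.37 to 0.94. Among them Kifap3 and Kif3a, parts of the kinesin-II motor that also serves axonal transport, were higher (0.79 and 0.94), and the small GTPase Arl3 had a log2 fold change of -0.15 (edgeR adjusted p = 0.0895). Summed over the list, cilium genes reached 1258 to 1331 TPM in knockout and 1279 to 1325 TPM in control GFP-positive libraries, against 1247 TPM in the knockout and 1243 TPM in the control GFP-negative library.

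Of 11 genes known to be induced by Shh in ventral progenitors or during their division, 10 were tested, 1 was higher and 7 were lower in GFP-positive cells (median log2 fold change -2.80). Nkx6-1, a homeodomain factor that motor neurons keep, was the higher one, at 32.3 ± 3.01 TPM in GFP-positive cells (SD, n = 10) and 6.69 and 6.90 TPM in the knockout and control GFP-negative libraries (log2 fold change 2.22, edgeR adjusted p = 2.52e-09). The cell cycle gene Ccnd1 averaged 6.29 ± 3.78 TPM in GFP-positive cells and 137 and 136 TPM in GFP-negative libraries (log2 fold change -4.47, edgeR adjusted p = 1.63e-05). Mycn averaged 30.5 ± 2.05 TPM in GFP-positive cells and 35.1 and 36.3 TPM in GFP-negative libraries (log2 fold change -0.24, edgeR adjusted p = 0.0110). All 9 class I factors, progenitor genes that Shh restricts, were called, 2 higher and 7 lower (median -3.87). Irx5 (log2 fold change 0.97) and Irx3 (0.28) were the higher ones, and Pax6, the third most abundant, was lower (-2.88, edgeR adjusted p = 0.0167).

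**Figure D4:**
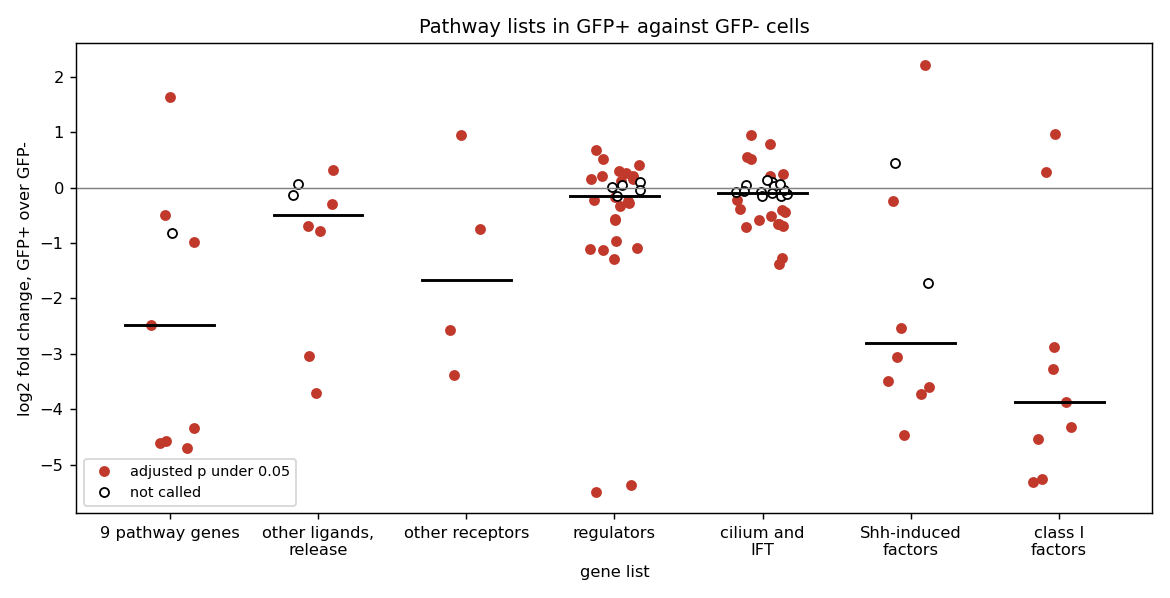
Log2 fold change of GFP-positive over GFP-negative cells for each tested gene of the 9 pathway genes and 6 further lists. Filled red points passed an edgeR adjusted p of 0.05, open points did not, and lines mark the median of each list, from -0.10 for the cilium genes to -3.87 for the class I factors.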

How the data were processed

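The authors deposited estimated counts per gene symbol, of which 39.2% are whole numbers, and TPM per gene symbol. kallisto and the mm10 genome are named per the submitters' processing notes, without a version. The deposited TPM columns sum to 974800 to 1018241, so some further scaling, which the labels do not describe, was applied. All comparisons used estimated counts rounded to whole numbers, with filterByExpr as the filter on low counts and TMM scaling, in edgeR 4.0.16 (robust quasi-likelihood F-test) in R 4.3.3, with Benjamini-Hochberg adjustment over all genes tested. CPM use TMM-scaled library sizes. Alternatives were DESeq2 size factors, no filter, DESeq2 1.42.0, limma 3.58.1 on log2 TPM (pseudocounts of 1 and 0.1), the replicate block and leaving out each library. Scripts were tested on simulated counts. Floors rest on the counts of 1 library each and cover counting error only. Where a group had 1 library, the edgeR intervals drew their spread from the replicated groups. They do not measure the spread within that group itself.

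The genes named beside the 9 are Arhgap35, the 3 genes of highest mean TPM in each pathway list and the 3 genes most like Shh, Ptch1 and Boc over GFP-positive libraries. Foxa2, Spon1, Ihh, Dhh, Lrp2, Sox2 and Mki67, where outside that rule, were named after their values were seen. Some genes of these lists are not reported here. The 9 genes, all lists and the tests were chosen with earlier results of these data known. Samples carry replicate numbers in their titles. Libraries of the same number, knockout and control, correlated in their deviations from the group means with r of 0.381, 0.251, 0.179, 0.277 and 0.309 for numbers 1 to 5, and r did not exceed 0.103 between libraries of different numbers, so the numbers pair the libraries. The GFP-negative libraries are both numbered 1. The labels do not say what a number shares. Coordinates are GENCODE M21 (GRCm38), and promoters are RefSeq, GRCm38.p6.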

Additional observations from a re-analysis of the deposited data

Results flagged for a closer look

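Among the levels of the 9 genes in GFP-positive cells, 1 of 18 sets of 5 libraries held a library far from the others. Cdon stood at 38.3 CPM in control replicate 4, while the other 4 control libraries lay between 30.8 and 32.0 CPM. The knockout library of the same number stood at 36.4 CPM, and the highest knockout library was replicate 3 at 41.1 CPM. Chance marks about 1 in 20 such sets.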

How the results depend on the processing

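No setting moved any of the 9 genes across the threshold between knockout and control or in the interaction, where 0 were called under every alternative and every library left out. Between GFP-positive and GFP-negative cells 8 were called under every setting but the replicate block (9), which rests on replicate 1 there. With a library left out 8 to 9 were called (9977 to 12404 genes in all). Hhip is the gene that crossed. The replicate block gave the Gli2 difference between genotypes as 0.11 in place of -0.018 on the log2 scale and its interaction as -0.12, and it changed no other call of the 9 genes.

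Counts over all genes depended on the setting. Between genotypes DESeq2 called 14 genes and limma 0 with a pseudocount of 0.1 and 0 with no filter, and leaving out a library gave 0 to 8. In the interaction DESeq2 called 1, limma 0, limma without filter 245, the replicate block 1, and leaving out a library gave 0 to 6. Between replicate numbers limma called 279 genes, 234 with the lower pseudocount and 93 with no filter, and leaving out a library gave 547 to 1764. Of the 9 genes DESeq2 called 3 there, limma 1, 0 and 0, and leaving out a library left 3 to 6. The causes were not tested.

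Directions that reversed were all of genes not called. Between genotypes Gli2 was 0.013 with DESeq2 and 0.046 with limma without filter, Ptch1 0.041, 0.042 and 0.041 in the 3 limma settings, Boc 0.0078, 0.010 and 0.0078, and Gli3 0.094 without filter. In the interaction Gli2 was -0.055 with DESeq2 and -0.15, -0.27 and -0.15 in the limma settings. Ptch1 was -0.017 in each, Gli3 -0.056, -0.13 and -0.056, Hhip -0.20, -0.41 and -0.20, and Gli1 0.029 at a pseudocount of 1.
Leaving out 1 library moved the genotype difference of Gli2 between -0.32 and 0.61, of Gli3 between -0.34 and 0.36, of Boc between -0.28 and 0.35, of Hhip between -0.14 and 0.37, of Smo between -0.17 and 0.064, of Ptch1 between -0.043 and 0.055 and of Shh between -0.029 and 0.053. It moved the interaction of Gli2 between -0.64 and 0.32, of Gli3 between -0.27 and 0.44, of Boc between -0.29 and 0.35, of Hhip between -0.17 and 0.34, of Cdon between -0.037 and 0.092 and of Smo between -0.075 and 0.16. At 2 to 24 counts of Gli1 in GFP-positive libraries, depth limits any statement on that gene, and lone GFP-negative libraries limit the sort comparison.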
